A study of Mus musculus with 26 samples.

Results

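Bulk RNA-seq of regenerating mouse muscle was read through 10 genes that mark the connective-tissue progenitors and the fat cells of muscle, chosen by symbol from the 53465 genes listed in the regeneration table. The 4 progenitor genes were Pdgfra, Ly6a, Dpp4 and Pi16, and the 6 adipocyte genes were Pparg, Adipoq, Plin1, Fabp4, Cfd and Lep. Tibialis anterior muscles of adult male C57BL/6 J mice were taken on days 0, 1, 3, 5 and 10 of an injury by cardiotoxin (CTX, a snake venom toxin that lyses muscle fibres), with 2 libraries for each day. The labels do not say whether the 2 libraries of a day came from separate mice, so p-values measure the spread between these libraries only, nor whether the day 0 muscle received the saline that the study's methods name as the control injection. A further 8 libraries came from C2C12 cells, a mouse myoblast line, as control cells and as cells labelled Cas9M3, in which a dCas9-KRAB repressor was aimed at the promoter of the m6A methyltransferase gene Mettl3. Both kinds of C2C12 cell were taken in growth medium (GM) and on day 3 of differentiation medium (DM3), 2 libraries each.

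Fibroadipogenic progenitors (FAPs) are the PDGFRα-positive stromal cells that lie between muscle fibres. After an acute injury they are known to multiply, to lay down matrix and to release factors that act on muscle stem cells, and then to fall back in number, while under other conditions they can turn into fat cells or fibroblasts. Ly6a (Sca-1) is a surface protein used to sort them, and Dpp4 and Pi16 mark a subset of fibroblast-like cells near the adventitia and fascia. Pparg, the nuclear receptor that drives fat cell formation, precedes the genes of the mature fat cell: Adipoq encodes adiponectin, Plin1 the perilipin that coats lipid droplets, Fabp4 a fatty acid binding protein, Cfd adipsin and Lep leptin. Fabp4 and Ly6a are also known to be expressed by endothelial cells.

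The 10 genes are spread over 9 chromosomes of the GRCm38 build. The progenitor genes are Pdgfra at chr5:75152292-75198215 (plus strand), Ly6a at chr15:74994877-74998031 (minus), Dpp4 at chr2:62330073-62412231 (minus) and Pi16 at chr17:29317680-29330593 (plus). The adipocyte genes are Pparg at chr6:115360951-115490399 (plus), Adipoq at chr16:23146536-23158028 (plus), Plin1 at chr7:79720218-79732903 (minus), Fabp4 at chr3:10204088-10208576 (minus), Cfd at chr10:79890853-79892655 (plus) and Lep at chr6:29060220-29073877 (plus). Short exon stretches of Pdgfra, Dpp4 and Pi16 overlap other annotated genes, mostly on the opposite strand, and the counting is not stated to use strand, so some of their reads may belong to those genes. Levels are given in FPKM, fragments per kilobase of gene after scaling each library to a common size, as deposited. For Fabp4 the gene length behind that unit was the whole gene, introns included (4489 bases), which is 5.01 times its longest coding transcript of 896 bases. Its level per length is lowered by that ratio against a gene such as Cfd, where both lengths are 922 bases.

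Promoter sequences of RefSeq (GRCm38.p6, 250 bases before to 50 after each start) matched 8 of the 10 genes, with 10 promoters in all, since Pparg has several starts; Ly6a and Fabp4 had none. They are shown for reference only and were not set against any difference between days or libraries. The C/EBP motif TTGCNNAA, the site of the factors that act with PPARγ in fat cells, was found on either strand in 4 of the 10 promoters, against 10.8% of 32851 promoters of the same length. The 4 genes were Pdgfra, Pparg, Plin1 and Lep, so both the progenitor and the adipocyte sets were among them. In the 30-base windows below the matched letters are in capitals, and positions count from the start of that RefSeq promoter, which for Pparg and Plin1 lies inside the gene as annotated above.
Lep, match at -55, chr6:29060155-29060184, plus strand: tggccggacagTTGCGCAAgtggcactggg
Plin1, match at -58, chr7:79732816-79732845, minus strand: tctgagaggcaTTGCCCAAgattccctgga
Pparg, match at -215, chr6:115421840-115421869, plus strand: tgtaccaagtcTTGCCAAAgcagcagacag
Pdgfra, match at -118, chr5:75152122-75152151, plus strand: ggcccccctgaTTGCATAAgagcaaaaagc
Adipoq held no match to that motif. The CCAAT box, CCAAT in letters, was found on either strand in 4 of the 10 promoters, against 37.4% of all promoters. The 3 genes with a match were Pparg, Adipoq and Pi16, and Adipoq held it 3 times near its RefSeq start. The match nearest that start is shown.
Adipoq, match at -7, chr16:23146517-23146546, plus strand: tgactgggttggCCAATggtaagctggggt
The TATA box TATAAA was in 2 of the 10 (Dpp4 and 1 Pparg promoter) against 13.6% of all. Cfd held no match to any of the 3 motifs. A match is a string of letters and was not tested as a site.

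The regeneration libraries held 14170000 to 18820000 reads, as recovered from the steps in their FPKM values. Muscle fibre genes were present in each of them, with Acta1, the skeletal actin gene, at 5994 to 23304 FPKM. The summed level of 11 fibre markers fell from 70736 to 80672 FPKM on day 0 to 17958 to 22767 on day 3, and the sum of the macrophage markers went from 54.1 to 108 up to 1696 to 1740. Xist, the RNA of the inactive X chromosome, reached 1 FPKM in both day 0 libraries, both day 10 libraries and 1 day 3 library (replicate 2), and was below 1 in the other 5, although the methods name male mice. Days and this split cannot be told apart except within day 3, where the Pdgfra level was 3.19 FPKM in the library without Xist and 3.56 in the one with it. The libraries of day 1 stood apart from each other: all 10 genes were higher in replicate 2, by a median of 2.70 times, against 46.5% of the 16753 genes tested. For Lep this rested on 1 read in each library, so only the scaling of the libraries differed. Plin1 had 5 and 11 reads, and neither gene was among those tested. Replicate 2 was also higher for 28 of the 31 tested genes of a wider FAP and fibroblast list. All levels here are on the deposited scaling, which does not follow the reads held by each library. On day 0, 1 read on 1 kb stood for 0.0803 and 0.0749 FPKM, with 16780000 and 16150000 reads. On day 3 it stood for 0.0507 and 0.0494, with 14330000 and 14290000 reads. Day 3 values are thus lower against day 0 than they would be as shares of all reads. In such levels of a whole muscle, fewer cells of a type and less RNA per cell cannot be told apart.

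Pdgfra and Dpp4 were higher in injured muscle on days 3 and 5, and their day 10 libraries overlapped with those of day 0. Pdgfra encodes the growth factor receptor that defines FAPs. Its FPKM was 1.07 and 1.20 on day 0, 0.669 and 2.01 on day 1, 3.19 and 3.56 on day 3, 3.99 and 4.01 on day 5 and, on day 10, 0.986 and 1.73. All 4 libraries of days 3 and 5 lay above all 6 of the other days. By limma on log2(FPKM + 0.1) with Benjamini-Hochberg adjustment, Pdgfra was higher on day 3 than on day 0 by a log2 fold change of 1.49 (SE 0.44, adjusted p = 0.0258) and on day 5 by 1.73 (adjusted p = 0.0298). Against day 1 the day 3 level was higher by 1.45 (adjusted p = 0.0427). The difference of day 10 from day 3 was -1.30 on the log2 scale and missed the threshold of 0.05 (adjusted p = 0.0520).

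Dpp4 encodes a membrane peptidase. Its FPKM was 0.191 and 0.130 on day 0, 0.122 and 0.397 on day 1, 0.433 and 0.993 on day 3, 0.816 and 1.04 on day 5 and, on day 10, 0.155 and 0.286. The 4 libraries of days 3 and 5 again lay above all others, but the gene rested on 11 to 130 reads per library, and on day 3 replicate 2 was 2.29 times replicate 1. Dpp4 was higher on day 3 than on day 0 by 1.56 on the log2 scale (SE 0.53, limma adjusted p = 0.0409) and on day 5 by 1.98 (adjusted p = 0.0326). The level of Dpp4 was 0.109 to 0.279 of the Pdgfra level in every library.

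**Figure D1:**
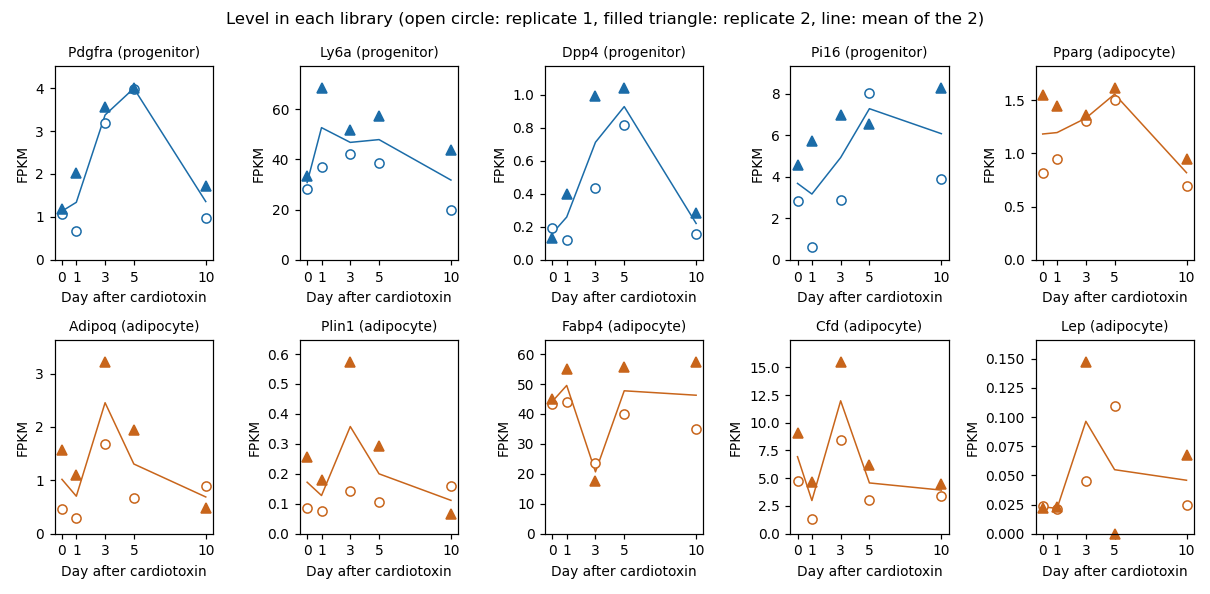
Level of each of the 10 genes in FPKM (vertical axes, from 0) against the day after cardiotoxin, with progenitor genes in blue and adipocyte genes in orange. Each day has 2 libraries, and the line joins their means. Pdgfra and Dpp4 were highest on days 3 and 5, Fabp4 was lowest on day 3, and the 2 libraries of a day lie far apart for Adipoq, Plin1 and Cfd.

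With 2 libraries a group these calls were narrow. When no gene was filtered out for low values, so that more genes entered the adjustment, all 4 calls against day 0 were lost (adjusted p 0.0510 to 0.0699). With a term for Xist both day 5 calls and the Pdgfra call on day 3 were lost (0.279, 0.180 and 0.0825). The Pdgfra call on day 3 against day 0 was lost when any 1 of the 4 libraries compared was left out (adjusted p 0.0683 to 0.107), although the fold change stayed between 1.42 and 1.57. The Dpp4 call was lost without replicate 1 or 2 of day 0 (adjusted p = 0.0940 and 0.139), without replicate 2 of day 3 (1.04 on the log2 scale, adjusted p = 0.255) and without either library of day 5 (0.0638 and 0.0653). On day 5 both calls were lost without any 1 of the 4 libraries of days 0 and 5 (adjusted p 0.0686 to 0.148 for Pdgfra and 0.0968 to 0.167 for Dpp4). The Pdgfra call against day 1 was lost without 7 libraries in turn, among them replicate 1 of day 1, where the fold change was 0.72 (adjusted p = 0.136). Without the other 6, of days 0, 3 and 5, the adjusted p was 0.0599 to 0.171.

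Ly6a and Pi16 gave no call on any day. Ly6a was the most abundant of the progenitor genes, at 28.1 and 33.4 FPKM on day 0, 36.8 and 68.5 on day 1, 42.0 and 51.6 on day 3, 38.6 and 57.2 on day 5 and, on day 10, 19.8 and 43.7. Both libraries of each of days 1, 3 and 5 lay above both of day 0, while day 10 overlapped with every other day. Its log2 fold changes over the 7 comparisons of days ran from -0.66 to 0.71, with SE 0.42 (limma adjusted p 0.253 to 0.994). Pi16, which encodes peptidase inhibitor 16, was at 2.82 and 4.55 FPKM on day 0, 0.631 and 5.71 on day 1, 2.90 and 6.96 on day 3, 8.03 and 6.52 on day 5 and, on day 10, 3.87 and 8.28. The 2 libraries of day 1 differed by 9.05 times, which was the widest gap of any of the 9 genes with reads in every library. Pi16 differed between days 3 and 1 by 1.16 on the log2 scale (SE 0.90, adjusted p = 0.359), a value that became -0.34 when replicate 1 of day 1 was left out and 2.65 when replicate 2 was left out (adjusted p = 0.714 and 0.0281). Pi16 and Pdgfra were not in a fixed proportion, at 0.908 to 4.79 times across libraries. The ratio was 3.93 and 4.79 on day 10 and 0.908 to 2.02 in the 4 libraries of days 3 and 5.

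A part of a wider list of 32 FAP and fibroblast genes was higher on the days on which Pdgfra was. Of its 31 tested genes, limma called 12 higher and 0 lower on day 3 than on day 0 (13 and 1 by voom), and the list's median log2 fold change was 0.86 against 0.01 for all genes tested. Across all genes 24.5% were called higher and 24.3% lower in that comparison. By the mean over all 10 libraries 3 fibrillar collagen genes, which encode fibres of the matrix, had the highest levels and Gsn, the gene of the actin-severing protein gelsolin, the fourth highest, but on day 0 Gsn was above all 3. Col1a1 was at 13.9 and 56.9 FPKM on day 0 and 350 and 354 on day 3 (log2 fold change 3.64, limma adjusted p = 0.00384). Col3a1 went from 19.1 and 77.1 to 238 and 284 FPKM (2.76, adjusted p = 0.0244), and Col1a2 from 8.29 and 33.9 to 176 and 198 (3.47, adjusted p = 0.00704). Gsn was at 91.4 and 79.7 FPKM on day 0 and 66.9 and 127 on day 3, with no call. On day 5 also 12 were higher and 0 lower than on day 0, with a median of 1.22, against 12.9% of all genes called higher. On day 10 limma called none of the 31 against day 0 (4 by the unadjusted p), and 5 were lower and 1 higher than on day 3, where 18.8% of all genes were called lower and 19.1% higher, so the share that was lower was not above the background. The day 3 count of 12 was 5 without replicate 1 of day 0, 6 without replicate 2 of day 3 and 7 with a term for Xist. The day 5 count was 0 with that term, without replicate 1 of day 0 or without either library of day 5, and it was 7 when replicate 2 of day 3 was left out. The 5 lower on day 10 became 1 without replicate 1 of day 3, 0 without replicate 2 of day 3 or replicate 1 of day 10, and 8 without either library of day 0. All 11 macrophage markers, 2 of 5 tendon markers and Acta2 of smooth muscle (23.3 and 27.8 FPKM on day 0, 289 and 378 on day 3) were higher on day 3 too, and their part in the collagen values was not tested.

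On the deposited scaling Fabp4 was the member with the clearest dip. It was at 43.3 and 45.0 FPKM on day 0, 44.1 and 55.0 on day 1, 23.8 and 17.6 on day 3, 39.9 and 55.6 on day 5 and, on day 10, 35.1 and 57.4. In FPKM both day 3 libraries lay below all 8 others, and the other days overlapped with each other. That gap depends on the scaling. In replicate 1, Fabp4 had 2424 of 16780000 reads on day 0 and 2105 of 14330000 on day 3. In replicate 2 it had 2700 of 16150000 and 1598 of 14290000. As a share of reads, replicate 1 of day 3 was thus not below replicate 1 of day 0. Fold changes of such shares were not tested. Fabp4 fell by 1.11 on the log2 scale from day 0 to day 3 (SE 0.28, limma adjusted p = 0.0129) and by 1.26 from day 1 (adjusted p = 0.0139). It was higher again by 1.20 on day 5 (adjusted p = 0.0322) and by 1.13 on day 10 (adjusted p = 0.0158), both against day 3. The fall from day 0 lost its call without replicate 1 or 2 of day 0 (adjusted p = 0.0539 and 0.0516) or replicate 2 of day 3 (0.0859), and the fall from day 1 without replicate 2 of day 1 (0.0591) or of day 3 (0.0972). The day 5 call was lost without any of its 4 libraries (0.0729 to 0.194), and the day 10 call without replicate 2 of day 3 or of day 10 (0.102 and 0.0672).

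On the same scaling some of the endothelial markers were lower on day 3 too. Of 12 genes such as Kdr, Flt1, Cdh5 and Pecam1, limma called 6 lower and 0 higher on day 3 than on day 0, with a median log2 fold change of -0.81, against 24.3% of all genes called lower. On day 3 against day 1 it called 3 lower, against 2778 of all 16753 genes. On day 5 against day 3, where Fabp4 passed, it called none of the 12 (8 by the unadjusted p and 2 by voom), with a median of 0.91. In that comparison 12.7% of all genes were called in either direction. Of the 4 most abundant, Egfl7 fell by 1.26 (limma adjusted p = 0.0190) and Esam, an adhesion molecule gene, by 0.87 (adjusted p = 0.0255). Cdh5, which encodes VE-cadherin, was at 20.1 and 33.6 FPKM on day 0 and 17.5 and 14.1 on day 3, and Pecam1 at 12.9 and 19.95 against 12.9 and 10.1, neither with a call. Kdr, the VEGF receptor 2 gene, fell by 1.82 (adjusted p = 0.00392). None of the 12 was at 0 in any library. Their summed level was 117 to 147 FPKM on day 0, 118 to 152 on day 1, 65.8 to 83.5 on day 3, 109 to 151 on day 5 and 88.7 to 161 on day 10. The deposited scaling lowers the day 3 sums against day 0, since a read stands for less FPKM on day 3. Whether the markers fell as a share of all reads was not tested. Fabp4 stood at 0.306 to 0.396 of that sum in the 8 libraries of the other days and at 0.285 and 0.267 on day 3, so it was lower on day 3 by somewhat more than the markers were together. The part of endothelial cells in the Fabp4 values was not tested. On day 10 against day 3, 4 of the 12 were higher and 0 lower, against 19.1% of all genes called higher. The day 3 count of 6 became 1 when replicate 2 of day 3 was left out and 3 when either day 0 library was, and the day 10 count of 4 was 0 without replicate 2 of day 3 or of day 10 and 2 without any 1 library of days 0 and 5.

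**Figure D2:**
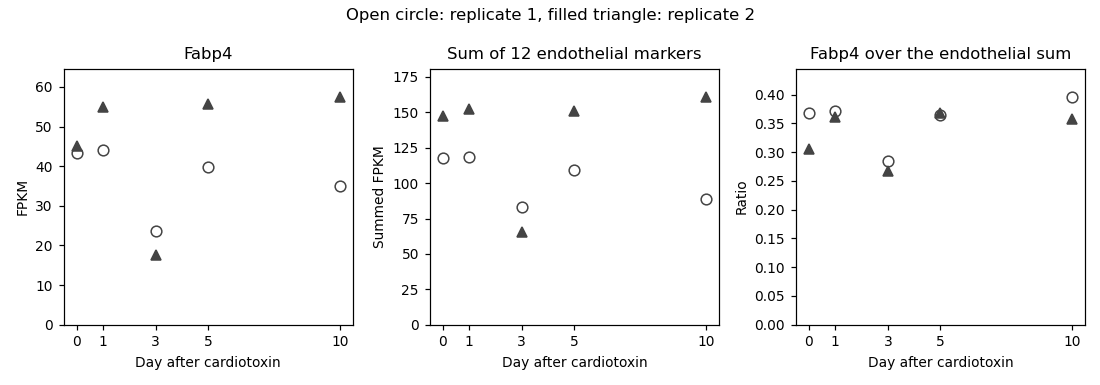
Fabp4 in FPKM, the summed FPKM of 12 endothelial markers, and the ratio of both, in each of the 10 libraries against the day after cardiotoxin. Both day 3 libraries were lowest for Fabp4 (23.8 and 17.6 FPKM) and for the endothelial sum, and the ratio was 0.285 and 0.267 there.

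The other adipocyte genes were low and did not share the course of Fabp4. Cfd, whose product is secreted by fat cells, was at 4.79 and 9.10 FPKM on day 0, 1.36 and 4.62 on day 1, 8.46 and 15.5 on day 3, 2.995 and 6.16 on day 5 and, on day 10, 3.37 and 4.50. Its day 3 libraries lay above all those of days 1, 5 and 10 and overlapped with day 0. Cfd was higher on day 3 than on day 1 by 2.14 on the log2 scale (SE 0.62, limma adjusted p = 0.0349). That call was lost without replicate 1 of day 1 (1.29, adjusted p = 0.150), replicate 1 of day 3 (0.0633) or replicate 2 of day 3 (0.185). Cfd differed on day 1 from day 0 by -1.35 (adjusted p = 0.211), on day 5 from day 3 by -1.39 (0.182) and on day 10 from day 3 by -1.53 (0.0861), none of which passed.

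Adipoq, the marker most particular to fat cells, was at 0.465 and 1.57 FPKM on day 0, 0.303 and 1.10 on day 1, 1.69 and 3.22 on day 3, 0.667 and 1.95 on day 5 and, on day 10, 0.887 and 0.491. These levels rested on 6 to 90 reads per library. Both day 3 libraries were above both of days 0, 1 and 10, while replicate 2 of day 5 fell between them. No comparison passed: the log2 fold change was 1.33 for day 3 against day 0 (SE 0.76, limma adjusted p = 0.184), 1.81 against day 1 (0.107) and -1.67 for day 10 against day 3 (0.118). Plin1 was under the filter for testing (0.5 FPKM in at least 2 libraries), with 5 and 16 reads on day 0, 5 and 11 on day 1, 13 and 54 on day 3, 8 and 27 on day 5 and, on day 10, 9 and 4. Its highest level was 0.574 FPKM, in replicate 2 of day 3. Lep was also under the filter, at 0 to 10 reads per library, and 10 reads in replicate 2 of day 3 were its most.

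Pparg had the narrowest range of fold changes of the tested genes. It was at 0.815 and 1.55 FPKM on day 0, 0.946 and 1.44 on day 1, 1.30 and 1.36 on day 3, 1.496 and 1.61 on day 5 and, on day 10, 0.691 and 0.945. The day 0 libraries, at 1.90 times apart, spanned the values of days 1 and 3. Its log2 fold changes over the 7 comparisons ran from -0.65 to 0.43 with SE 0.32 (limma adjusted p 0.148 to 0.952). Counting error is wide at these levels, since Pparg had 25 to 94 reads per library.

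**Figure D3:**
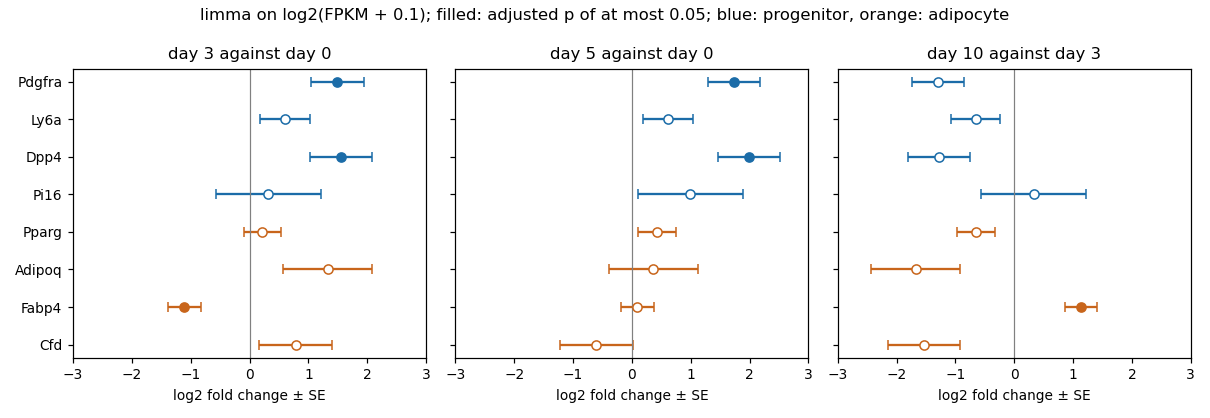
log2 fold change with its SE (horizontal axis) for the 8 tested genes in 3 comparisons, with filled points for an adjusted p of at most 0.05. On day 3 against day 0 Pdgfra (1.49) and Dpp4 (1.56) were higher and Fabp4 (-1.11) lower, and on day 10 against day 3 only Fabp4 passed (1.13).

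Adipoq, Plin1 and Cfd differed between the 2 libraries of a day in the same direction on days 0, 1, 3 and 5. Replicate 2 was above replicate 1 on days 0, 1, 3 and 5 for Adipoq (1.91 to 3.63 times) and for Plin1 (2.40 to 4.05 times), and below it on day 10 for both (0.554 and 0.410 times). Cfd was higher in replicate 2 on all 5 days, by 1.34 to 3.39 times. Fabp4 did not follow: its 2 libraries differed by 1.64 times at most, and on day 3, where Adipoq was 1.91 times and Plin1 4.05 times higher in replicate 2, Fabp4 was 0.741 times. Of all genes tested, 46.5% to 48.4% were higher in replicate 2 on each day. The 26 tested genes of a wider adipocyte list did not share the difference on every day, with 42.3% (days 3 and 10) to 65.4% (day 1) higher in replicate 2. It was not particular to fat cell genes either, since 3 or 4 of the 4 progenitor genes and 64.5% to 93.5% of the 31 FAP and fibroblast genes were higher in replicate 2 on each day. Replicates of a day have no order beyond their names. Same-numbered libraries of different days deviated together weakly at most (correlations of deviations from group means -0.019 to 0.211). In 8 of the 10 libraries Cfd was at 3.17 to 5.78 times the Adipoq level, with 10.3 in replicate 1 of day 0 and 9.15 in replicate 2 of day 10.

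**Figure D4:**
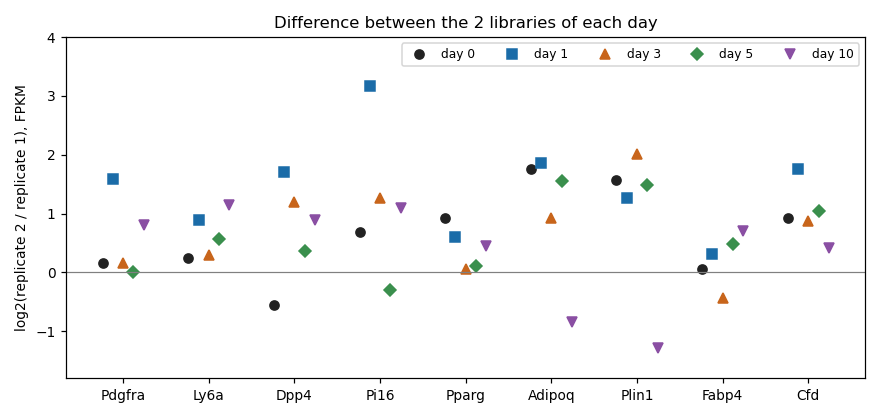
log2 ratio of replicate 2 to replicate 1 in FPKM for 9 genes, with 1 point for each day (Lep is left out because 1 library had 0 reads). Points above 0 are higher in replicate 2. Adipoq, Plin1 and Cfd lay above 0 on days 0, 1, 3 and 5, and the widest gap was Pi16 on day 1 (9.05 times).

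By role, both members called higher than on day 0, on day 3 and again on day 5, were progenitor genes. On day 3 against day 0, 3 of the 8 tested genes were called, against 48.8% of all genes tested, so the share was not above the background. Of the 4 progenitor genes 2 were higher, with a median log2 fold change of 1.05, and of the 4 tested adipocyte genes 1 was lower, with a median of 0.50. On day 5 against day 0, 2 of 8 were called against 25.5% of all genes, both progenitor genes, and the medians were 1.36 and 0.23. All 4 progenitor genes had both day 5 libraries above both of day 0, and none of the 4 tested adipocyte genes did. For all genes the libraries of these days did not overlap, in either direction, in 70.8% of cases. The share with day 5 above day 0 was not counted, so the 2 figures are not alike. On day 3 against day 1, 3 of 8 were called against 31.1% of all genes. On day 5 against day 3 and on day 10 against day 3 only Fabp4 was called, against 12.7% and 37.9%. None was called on day 1 against day 0 (6% of all genes called) or on day 10 against day 0 (0.00597%), and none of the 8 had an unadjusted p under 0.05 or was called by voom in either. A single F test over the 5 days called Pdgfra, Dpp4 and Fabp4 (adjusted p = 0.0290, 0.0495 and 0.0288), against 43% of all genes. The difference between the roles was described by these counts and was not itself tested.

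The wider list of adipocyte genes held calls in both directions. Of 26 tested genes, 8 were higher and 12 lower on day 3 than on day 0, against 24.5% and 24.3% of all genes. The most abundant were genes that muscle fibres also express. Car3, a carbonic anhydrase, went from 840 and 1113 FPKM on day 0 to 203 and 94.9 on day 3 (log2 fold change -2.80, limma adjusted p = 0.0265). Gpd1, which makes the glycerol backbone of fat, fell by 2.33 (adjusted p = 0.00369), Slc2a4, the insulin-responsive glucose transporter, by 3.02 (adjusted p = 0.00043), and Pnpla2, the lipase that opens lipid stores, by 2.03 (adjusted p = 0.000367). All 11 muscle fibre markers were also lower on day 3, with a median log2 fold change of -2.18, but with quantile normalization 2 of them were lower and 1 higher, with a median of -0.36. The part of the fibres in the 4 genes was not tested. Among the 8 that were higher were Mest (3.87), Rbp4, a retinol carrier (1.75), Nnat (1.80) and Fasn, the fatty acid synthase (0.85). On day 10 against day 3, 11 of the 26 were higher and 4 lower, Mest and Fasn among the latter, against 19.1% and 18.8% of all genes. The 8 higher on day 3 became 2 when replicate 1 of day 0 or replicate 2 of day 3 was left out and 4 when replicate 1 of day 3 was, and the 12 lower became 7 when replicate 2 of day 3 was. The day 10 counts became 7 higher and 0 lower when replicate 2 of day 3 or replicate 1 of day 10 was left out, and 9 and 1 when replicate 1 of day 3 was.

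Regulators of fat cell formation also held calls in both directions. Of 17 tested, 3 were higher and 7 lower on day 3 than on day 0, against 24.5% and 24.3% of all genes, so the share that was higher was not above the background. Cebpa, the partner of Pparg in the mature fat cell and a factor of myeloid cells too, was higher by 3.43 on the log2 scale (limma adjusted p = 0.00039), Klf5 by 2.08 (adjusted p = 0.0114) and Ebf2, a factor of fat precursors, by 1.15 (adjusted p = 0.0172). Cebpb, which acts early in fat cell formation, fell by 1.42 (adjusted p = 0.0026), from 46.0 and 33.0 FPKM to 14.4 and 14.6, and Rxra, the receptor that pairs with PPARγ, by 1.23 (adjusted p = 0.00488). Klf15 fell by 3.02 (adjusted p = 0.0094), and Timp3 was at 7.98 and 8.67 FPKM on day 0 and 4.23 and 5.47 on day 3 with no call. All 11 macrophage markers were higher on day 3, and their part in the Cebpa value was not tested. Of 5 tested brown fat genes 4 were lower on day 3, among them Cox8b (-2.49) and Cox7a1 (-3.09), both of which are expressed in muscle fibres. Without 1 library the 3 regulators that were higher became 1 without replicate 1 of day 0 or replicate 2 of day 3, and the 7 that were lower stayed at 5 to 9.

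The genes whose levels were most like a member over the 10 libraries were found by Pearson's r on log2(FPKM + 0.1) among 12284 genes with a mean of at least 1 FPKM. For Pdgfra they were Plxdc2 (0.980), CT010505.2 (0.980), Abca9 (0.977), Sbf2 (0.975) and Ntn1 (0.974). For Pi16 they were Igfbp6 (0.955), Dcn (0.925), Entpd2 (0.924), Pcsk6 (0.923) and Htra3 (0.913). Dcn, which encodes the matrix proteoglycan decorin, was on the wider FAP list. For Adipoq they were Ctns (0.940), 4930579G18Rik (0.905), Gm19582 (0.890), Maml1 (0.881) and Gm17112 (0.880), none of which was on the adipocyte list. The 10 points share 5 days, so r is a description only. By Spearman's rank correlation the first gene for Adipoq was still Ctns (0.939), while CT010505.2, Abca9 and Efemp1 tied as the first for Pdgfra (0.988) and Cilp2 was the first for Pi16 (0.915).

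In C2C12 cells 4 of the 10 genes passed the filter. The tables were scaled separately, so levels are not compared between muscle and cells. Mettl3 was at 4.68 to 5.65 FPKM in the 4 control libraries and at 0.0805 to 0.331 in the 4 Cas9M3 libraries. Ly6a was at 1654 and 1413 FPKM in control cells in GM and 213 and 275 on DM3, and at 1487 and 857 in Cas9M3 cells in GM and 936 and 1087 on DM3. It was lower on DM3 than in GM in control cells by 2.66 on the log2 scale (SE 0.37, limma adjusted p = 0.0394), the only one of the 4 genes called, against 1.14% of all genes (158 genes, and 411 with the replicate number as a block). That call was lost without replicate 2 of the GM control (adjusted p = 0.0532), either DM3 control (0.430 and 0.297) or either DM3 Cas9M3 library (0.137 and 0.134). On DM3 it was higher in Cas9M3 than in control cells by 2.06 (SE 0.37), with no overlap between the libraries. The adjusted p was 0.0543, and 0.0419 with the replicate number as a block, as the numbers paired the C2C12 libraries. It was 0.0296 and 0.0289 without replicate 1 and without replicate 2 of the GM control. In that comparison 1.98% of all genes were called. The muscle fibre markers differed there too. The summed level of the 11 markers on DM3 was 705 to 709 FPKM in control and 18.1 to 22.9 in Cas9M3 cells. Of 9 tested, limma called 2 lower and 0 higher, with a median log2 fold change of -4.78. Whether the Ly6a difference follows how far the cells had differentiated was not tested. The effect of Cas9M3 on Ly6a on DM3 exceeded that in GM by 2.50 (limma adjusted p = 0.283), which did not pass, and 0% of all genes did.

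In growth medium Pdgfra and Fabp4 differed widely between the replicates of C2C12 cells. Pdgfra was at 32.9 FPKM in replicate 1 and 6.76 in replicate 2 of the GM control and at 27.4 and 6.79 in the GM Cas9M3 libraries, against 3.85 and 3.27 and 5.95 and 4.88 on DM3. Fabp4 was at 8.01 and 0.0461 in the GM control and 11.9 and 0.291 in GM Cas9M3, so replicate 1 of both cell types held the high value. On DM3 it was at 0.715 and 1.10 in control and 1.77 and 1.46 in Cas9M3 cells. Pparg was between 4.74 and 8.76 FPKM in all 8 libraries. The Pdgfra difference of DM3 from GM in control cells was -2.05 (SE 0.87, limma adjusted p = 0.282). None of these 3 passed in any of the 3 comparisons. In GM limma called none of the 4 tested genes between Cas9M3 and control cells, with no member at an unadjusted p under 0.05 or called by voom. That comparison called 0% of all genes, also with the replicate number as a block, and not even Mettl3, which differed by -4.10 on the log2 scale (adjusted p = 0.188, and 0.158 with the block), so the lack of calls does not show that no gene differed. Adipoq was at 1.01 FPKM or less, Pi16 at 0.372 or less and Plin1 at 0.164 or less. Dpp4 had at most 3 reads, Cfd at most 4 and Lep none in any library.

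**Figure D5:**
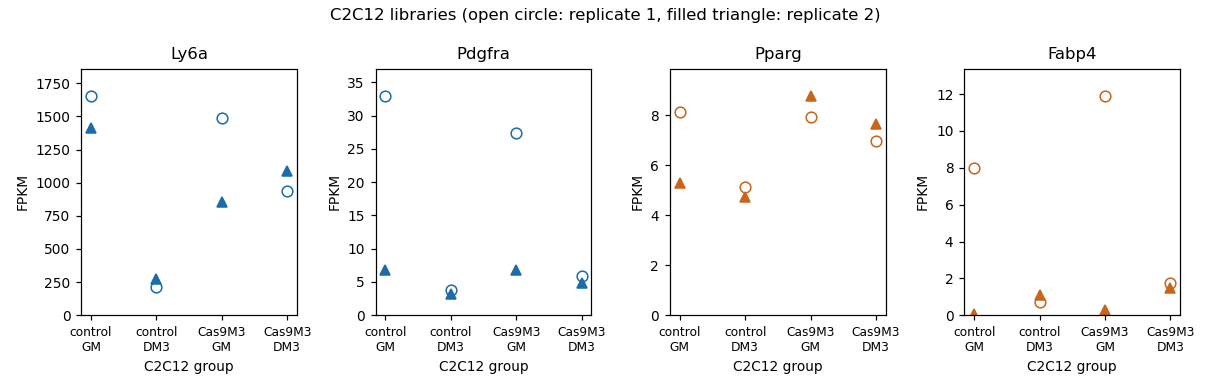
FPKM (vertical axes, from 0) of the 4 tested genes in the 8 C2C12 libraries, by cell type and medium. Ly6a was lowest in the 2 control libraries on DM3 (213 and 275 FPKM), and Pdgfra and Fabp4 were high in replicate 1 of both GM groups.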

How the data were processed

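The deposited tables hold FPKM values that the authors made with HISAT2 (GRCm38), featureCounts and DESeq2. FPKM was tested on log2(FPKM + 0.1) with limma 3.58.1 (R 4.3.3, moderated by an intensity trend, 5 residual degrees of freedom in muscle and 4 in C2C12 cells), for genes at 0.5 FPKM or more in at least 2 libraries (16753 and 13824 genes), with Benjamini-Hochberg adjustment and a threshold of 0.05. All groups of a table shared 1 fit. The authors applied DESeq2 to read counts, which the files used here do not hold, so limma took its place. Fold changes are on the log2(FPKM + 0.1) scale, which understates those of low genes, and are given where they passed or reached 1 in size.

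Low values were whole multiples of 1 read for 97.0% to 97.7% of values in muscle (within 0.05 reads) and 98.7% to 98.9% in C2C12 cells, with gene lengths from GENCODE M21. Reads so recovered give the depth (14170000 to 18820000 in muscle, 14230000 to 29570000 in C2C12 cells) and the read numbers quoted. Counting error alone is covered by these numbers. For Pi16 the length differed slightly and its reads are approximate.

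The members and the gene lists were chosen with earlier results of these data known. Beside the 10 members, the 4 genes with the highest mean FPKM are named for the FAP, adipocyte, regulator and endothelial lists, with 5 genes most like Pdgfra, Pi16 and Adipoq. Other list genes were named after their values were seen. The adipocyte list had 29 of 30 symbols in the muscle table. Of the other lists, T cell markers were higher on day 3 than on day 0 for 4 of 4 tested genes, and Schwann cell markers lower for 1 of 4 and pericyte and smooth muscle markers higher for 2 and lower for 2 of 6. Of all genes 24.5% were called higher and 24.3% lower in that comparison. Same-numbered libraries deviated together in C2C12 cells (correlations of deviations from group means 0.278 to 0.680, every pair over 0.1). In muscle the correlations were lower (-0.019 to 0.211), with days 0 and 10 (0.211) and days 5 and 10 (0.117) the pairs over 0.1. The fit was tested on simulated data: for day 3 against day 0 with 16753 genes, 77 of 100 genes changed by 1.5 on the log2 scale and 96 of 100 changed by 3 were recovered, with 9 unchanged genes called. For the C2C12 control on DM3 against GM with 13824 genes the numbers were 47, 90 and 8. Both simulations drew independent noise with the fit's own spread and held all other genes equal over the groups. Only genes with a positive mean log2 value were changed, which leaves out genes as low as Dpp4 in muscle (mean 0.457 FPKM). In the data many genes changed, so these numbers are not the recovery or false-call rates of the calls above. The M3 and GFP libraries were not analysed here. Alternatives were other pseudocounts, filters, scalings, a replicate block, a term for Xist, the 2 groups alone, each library left out, the study's fold threshold of 2 and, chosen after seeing the data, voom on the recovered reads. None of them scaled the libraries by total reads, and voom kept the deposited scaling.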

Additional observations from a re-analysis of the deposited data

How the results depend on the processing

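The number of members called depended on the setting. On day 3 against day 0 (3 called) it was 1 with no filter on low values, which tests more genes, 1 with quantile normalization and 0 with the study's fold threshold of 2, and 0 to 3 without 1 library. On day 5 against day 0 (2 called) it was 0 with no filter, 1 with a filter at 1 FPKM, 1 with quantile normalization, 0 with the Xist term, 0 with the fold threshold, and 0 to 2 without 1 library. On day 3 against day 1 (3 called) it was 1 with no filter, 0 with the Xist term, 1 with the 2 groups alone, 1 with the fold threshold, and 0 to 3 without 1 library. On day 5 against day 3 (1 called) it was 0 with no filter, 0 with the Xist term, 0 with the fold threshold, 2 with the replicate block, and 0 to 1 without 1 library. On day 10 against day 3 (1 called) it was 2 with a pseudocount of 1, 2 with a filter at 1 FPKM, 0 with quantile normalization, 3 with the replicate block, 2 with voom, 4 with the 2 groups alone, 4 by the unadjusted p, 0 with the fold threshold, and 0 to 3 without 1 library. On day 1 against day 0 (0 called) it was 1 with the replicate block. Over the 5 days (3 called) it was 0 with no filter, 1 with quantile normalization, 0 with the Xist term, and 0 to 5 without 1 library. In C2C12 control cells on DM3 against GM (1 called) it was 0 with no filter, 0 with quantile normalization, 0 with the 2 groups alone, and 0 to 1 without 1 library. For Cas9M3 against control on DM3 (0 called) it was 1 with a pseudocount of 1, 1 with a filter at 1 FPKM, 1 with the replicate block, 1 with voom, 2 with the 2 groups alone, 1 by the unadjusted p, and 0 to 1 without 1 library. What made these counts differ between settings was not tested. The labels give the replicate numbers of muscle no meaning beyond a name. The block's gains there were Cfd on day 1 against day 0 and on day 5 against day 3. They were also Adipoq on day 3 against day 1, and Pdgfra and Cfd on day 10 against day 3. With the Xist term the Pdgfra fold change on day 3 against day 0 was 1.57 (adjusted p = 0.0825), and with quantile normalization Dpp4 was 0.83 (0.220) and Fabp4 -0.79 (0.0646). Quantile normalization moved the median of all genes on day 3 against day 0 to -0.12. Of 23 fold changes that passed or reached 1 in size, 1 changed sign, that of Pi16 on day 3 against day 1, at -0.34 to 2.65 without 1 library. Of the other 45, 24 changed sign in some setting and 2 passed in some setting, so no direction is read from them. Dpp4, Adipoq, Plin1 and Lep are limited by depth, at no more than 130 reads in any library.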
